A study of Arabidopsis thaliana with 6 samples.

Results

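Class III peroxidases are secreted plant heme enzymes that use hydrogen peroxide to oxidize phenolic compounds and, in the wall, can join lignin units, ferulate or extensin tyrosines to each other, which stiffens the wall. They can also release reactive oxygen species, which loosen it. The genes described here are the wall-modifying class III peroxidases PRX71 (AT5G64120), PRX62 (AT5G39580), PRX72 (AT5G66390), PRX37 (AT4G08770), PRX52 (AT5G05340), PRX33 (AT3G49110) and PRX34 (AT3G49120), 7 of the 73 genes of the family in *Arabidopsis*. They were chosen by locus, with their signals on the frb1-1 and wild-type arrays already known, so that the values of that comparison, calls included, are a description of them and support nothing. The annotation of the array gives a probe set of its own to 5 of the 7. PRX33 and PRX34, which are needed for the apoplastic oxidative burst and are known from root elongation, are not named by it and were not analysed here.

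RNA came from whole 10-day-old Col-0 seedlings grown on MS medium, and was hybridized to Affymetrix ATH1 arrays. The paper's methods give constant light or long days for seedlings, without saying which held for the arrays. Of the 6 arrays, 3 were from *friable1* (*frb1-1*) seedlings, which carry a T-DNA insertion upstream of the *FRB1* coding region (AT5G01100), and 3 were from wild-type *FRB1* seedlings. The allele keeps some *FRB1* transcript according to the study, and whether seedlings were pooled for a replicate is not given in the sources used here. The labels call the replicates biological. A value is a linear signal intensity for 1 probe set, which tracks the amount of a transcript in the seedling as a whole, so that fewer cells of a type and less RNA per cell cannot be told apart. Levels were compared between arrays for 1 probe set at a time, or for the summed signal of seed or root markers, never between genes.

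All 6 arrays had the same trimmed mean signal, and their median signals ran from 176 to 183 in frb1-1 and from 153 to 199 in the wild type. Of the probe sets other than controls, 15218 of 22746 had a mean log2 signal of at least 6 over the 6 arrays and entered the test (limma, adjusted over all of them). At an adjusted p under 0.05, 42 (0.276%) were higher in frb1-1 and 14 (0.0920%) were lower. The annotation names no probe set for *FRB1*, so the genotype labels were not checked through its signal. Markers of the tissue were thinly named, with 2 of 10 root markers, 2 of 11 seed markers and 0 of 10 green tissue markers.

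PRX71 and PRX62 had higher signals in frb1-1 seedlings than in the wild type, by nearly the same factor, while PRX37, PRX72 and PRX52 had overlapping signals in the genotypes. Among the 4 listed genes above the minimum signal, 2 had frb1-1 arrays that all lay above the wild-type arrays, where 6.26% of all tested probe sets did so. Of the 4, 1 gene, PRX71, was higher at an adjusted p under 0.05 in the fit across all probe sets (limma), and none was lower. Of all tested probe sets, 0.276% were called higher and 0.0920% lower. Nothing is read from these counts, since the same arrays were known when the genes were listed. The count of called genes moved between 0 and 2 (PRX71 and PRX62) with the setting, and was 0 without the mean-variance trend or without frb1-1 replicate 1, frb1-1 replicate 2 or wild-type replicate 1. The study also placed PRX71 and PRX62 among its up-regulated genes from these arrays, so that this is not independent evidence of their direction.

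PRX71 is a cationic wall peroxidase known to restrict cell growth and to take part in the response to wall damage. Its signal was 4888, 5077 and 3528 on frb1-1 replicates 1, 2 and 3, and 1388, 2055 and 1403 on wild-type replicates 1, 2 and 3. The lowest frb1-1 array, replicate 3, still lay well above the highest wild-type array, replicate 2. The mean signal was 4497 ± 845 in frb1-1 and 1615 ± 381 in the wild type (SD, n = 3 each). The ratio of the mean signals was 2.78, and the difference of the mean log2 signals was 1.48 (standard error 0.23). The ratio was 2 or more for 1.18% of all tested probe sets, higher in frb1-1. The log2 difference stayed between 1.39 and 1.67 with any 1 array left out.

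PRX62 is a peroxidase known from root hair growth in the cold. Its signal was 557, 558 and 334 on frb1-1 replicates 1 to 3, and 208, 162 and 141 on wild-type replicates 1 to 3. As for PRX71, frb1-1 replicates 1 and 2 were nearly equal and replicate 3 was the lowest of the mutant arrays. In the wild type the orders differed, since PRX71 was highest on replicate 2 and PRX62 on replicate 1. The mean signal was 483 ± 129 in frb1-1 and 170 ± 34.0 in the wild type (SD, n = 3 each). The ratio of mean signals was 2.84 and the log2 difference 1.48 (standard error 0.28). Leaving out 1 array moved the log2 difference between 1.36 and 1.73. Once each genotype's own mean was taken away, the log2 signals of PRX71 and PRX62 had a correlation of 0.47 over the 6 arrays, which share their scaling and their RNA.

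**Figure D1:**
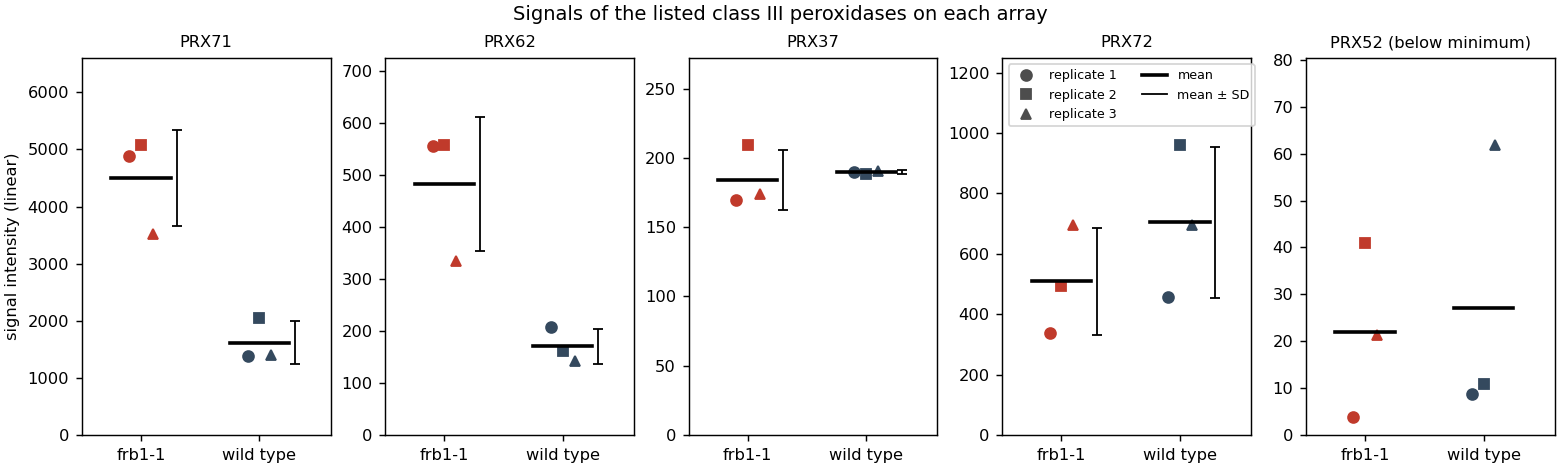
Signal intensity (linear axis from 0, a scale for each gene) of 5 class III peroxidases on 3 frb1-1 arrays (left, red) and 3 wild-type arrays (right, blue). Symbols give the replicate, thick lines the mean and thin bars the mean ± SD, which is left out for PRX52. For PRX71 the frb1-1 arrays lie between 3528 and 5077, above all wild-type arrays, and for PRX62 between 334 and 558, also above all wild-type arrays, while for PRX37, PRX72 and PRX52 the arrays of both genotypes overlap.

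PRX72 takes part in lignification of the stem. Its signal was 338, 493 and 694 on frb1-1 replicates 1 to 3, and 458, 960 and 694 on wild-type replicates 1 to 3. The arrays of the genotypes overlapped, and the highest frb1-1 array, replicate 3, lay above the lowest wild-type array, replicate 1. The means were 508 ± 179 in frb1-1 and 704 ± 251 in the wild type (SD, n = 3 each), a log2 difference of -0.47 (standard error 0.32). The standard deviation within either genotype was nearly as large as the difference between them or larger. Leaving out 1 array moved the log2 difference from -0.75 (without wild-type replicate 1) to -0.20 (without frb1-1 replicate 1).

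PRX37 is a vascular peroxidase whose overexpression dwarfs plants. Its signals were 170, 209 and 174 on frb1-1 replicates 1 to 3, and 190, 188 and 191 on wild-type replicates 1 to 3. The wild-type arrays were nearly identical and lay inside the range of the frb1-1 arrays. The mean was 184 ± 21.7 in frb1-1 and 190 ± 1.39 in the wild type (SD, n = 3 each), a log2 difference of -0.05 (standard error 0.26), which was 0.01 without frb1-1 replicate 1.

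PRX52, which acts in the lignification of fibres and vessels, was below the minimum signal and was not tested. Its signals were 3.88, 40.9 and 21.3 on frb1-1 replicates 1 to 3, and 8.82, 10.9 and 61.8 on wild-type replicates 1 to 3. The arrays of the genotypes overlapped throughout, and no fold is given at this level.

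PRX71 is the last of a row of 3 peroxidase genes on chromosome 5. In the order of protein-coding genes of TAIR10.1 it follows PRX70 directly, and PRX70 follows PRX69, a peroxidase of the root hair. PRX69 had signals of 5108, 4405 and 5354 on frb1-1 replicates 1 to 3, and 3250, 5994 and 5046 on wild-type replicates 1 to 3. The genotypes overlapped, with a log2 difference of 0.10 (standard error 0.24, adjusted p = 1.0 from limma). PRX70 had 223, 274 and 114 on the frb1-1 arrays and 98.1, 181 and 167 on the wild-type arrays, a log2 difference of 0.41 (standard error 0.38, adjusted p = 1.0). It was lower on frb1-1 replicate 3 than on the other frb1-1 arrays, as PRX71 was, but there it lay inside the wild-type range. The gene on the other side of PRX71, AT5G64130, had a log2 difference of 0.14 (standard error 0.20, adjusted p = 1.0). Whether PRX71 differed from these neighbours in its change was not tested.

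PRX37 likewise has a peroxidase beside it on chromosome 4, PRX38. PRX38 had signals of 61.8, 32.7 and 84.4 on frb1-1 replicates 1 to 3, and 182, 44.2 and 196 on wild-type replicates 1 to 3. Wild-type replicate 2 lay with the frb1-1 arrays, apart from the other wild-type arrays. The log2 difference of -1.07 (standard error 0.62) did not pass the test (adjusted p = 0.996 from limma). PRX62, PRX72 and PRX52 have no peroxidase gene within 2 protein-coding genes on either side. The tested genes directly next to PRX62, AT5G39570 and AT5G39590, had log2 differences of 0.26 (standard error 0.19, adjusted p = 1.0) and 0.59 (standard error 0.22, adjusted p = 0.668). AT5G39590 was higher on every frb1-1 array (1535 to 1709) than on every wild-type array (927 to 1359), as were 6.26% of all tested probe sets.

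**Figure D2:**
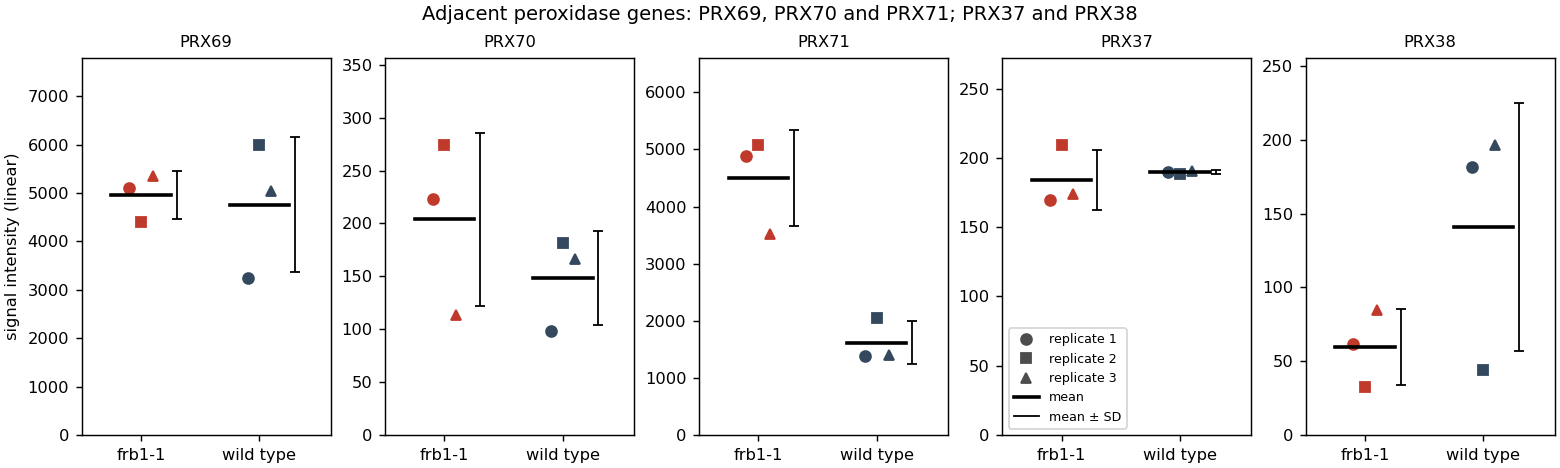
Signal intensity (linear axis from 0, a scale for each gene) of the adjacent genes PRX69, PRX70 and PRX71, and of PRX37 and PRX38, on 3 frb1-1 arrays (left, red) and 3 wild-type arrays (right, blue), with the mean and the mean ± SD. The genotypes are apart for PRX71 and overlap for PRX69, PRX70, PRX37 and PRX38.

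The other members of the family were listed by membership, without regard to their own values, and were tested. They are the family less the 7 genes chosen with their signals known, PRX71 and PRX62 included. The counts, median and range given for the others depend on that choice and do not describe the whole family. Of 66 listed genes, 50 have a probe set of their own, 7 are named only on a probe set with another gene, and 9 have none named (among these PRX4, PRX32, PRX53 and PRX64). Of the 50, 31 had enough signal to be tested and 19 did not, PRX54 included. Of these 19 dim genes, 1 (PRX18) had all frb1-1 arrays above the wild-type arrays and 3 (PRX6, PRX46 and PRX59) had them all below. The shares were 6.26% and 4.65% among the tested probe sets, which are brighter, and were not counted among dim ones. These 4 genes were picked out after their values were seen. PRX18 read 45.2, 39.0 and 57.9 on frb1-1 replicates 1 to 3, and 25.6, 5.46 and 19.8 on wild-type replicates 1 to 3. No fold is given for signals this low. None of the 31 passed the test in either direction, and the smallest adjusted p was 0.803 (limma). Of all tested probe sets, 0.276% were called higher and 0.0920% lower. With shares this low, none among 31 does not show that these genes were unchanged. At an unadjusted p under 0.05 there were 2 (PRX20 and PRX35), against 5.96% of all tested probe sets.

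Among these 31 genes the log2 differences ran from -1.07 to 0.41. The highest were those of PRX70, PRX66 (0.34, standard error 0.25), PRX16 (0.29, standard error 0.20), PRX19 (0.26, standard error 0.59) and PRX21 (0.25, standard error 0.24). The lowest were those of PRX38, PRX20 (-0.84, standard error 0.36), PRX35 (-0.57, standard error 0.24), PRX39 (-0.45, standard error 0.34) and PRX9 (-0.40, standard error 0.31). The difference was negative for 20 of 31 (64.5%), against 48.7% of all tested probe sets. The median was -0.14, against 0.01 over all tested probe sets, and it was -0.26 without wild-type replicate 1 and -0.02 without wild-type replicate 2.

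**Figure D3:**
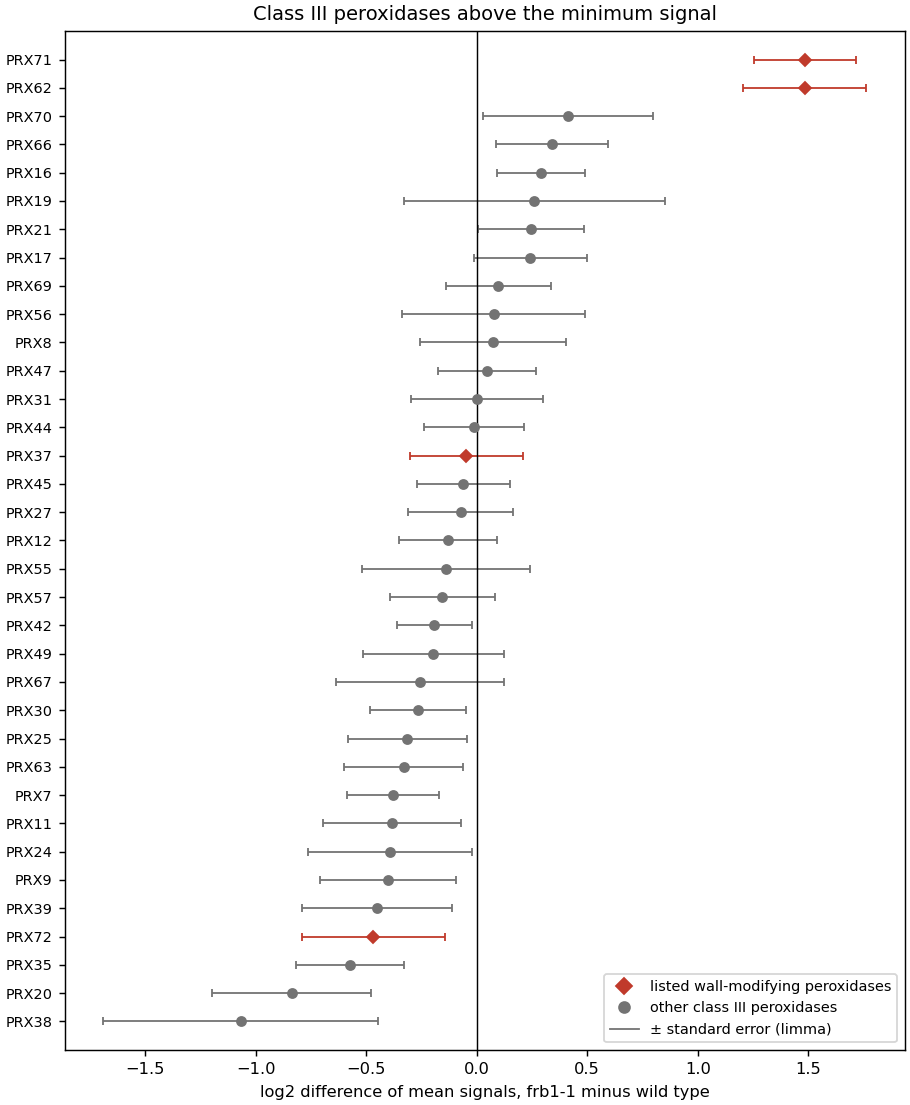
Difference of mean log2 signals, frb1-1 minus wild type (horizontal axis), for the 35 class III peroxidases with a probe set of their own above the minimum signal, with ± the standard error of the limma fit. Red diamonds are the listed genes and grey circles the other members of the family. PRX71 and PRX62 stand at 1.48, and the next gene drawn, PRX70, at 0.41. Probe sets shared between genes are not drawn. Their log2 differences were 1.16 (PRX29 and AT3G42570), 0.61 (PRX50 and PRX51), -0.30 (PRX22 and PRX23) and -0.52 (PRX14 and PRX15).

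For 3 of the 31 genes all frb1-1 arrays lay below all wild-type arrays, and for 0 above. Of all tested probe sets, 4.65% did the first and 6.26% the second. PRX35 had signals of 517, 698 and 917 on frb1-1 replicates 1 to 3, and 982, 966 and 1150 on wild-type replicates 1 to 3. Its frb1-1 arrays spread widely, and replicate 3 came close to the wild type. PRX7 averaged 1480 ± 110 in frb1-1 and 1943 ± 349 in the wild type (SD, n = 3 each). PRX42 averaged 10845 ± 798 in frb1-1 and 12391 ± 1118 in the wild type (SD, n = 3 each), a log2 difference of -0.19 (standard error 0.17). None of the 3 passed the test, with adjusted p from 0.803 to 1.0 in limma. Of the other relatives listed, PRX25, known from lignification, had a log2 difference of -0.31 (standard error 0.27) and PRX57 of -0.16 (standard error 0.24), neither past the test (adjusted p = 1.0 each).

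The arrays themselves differed in the level of these peroxidases across genotypes. Of the 31 other genes, 14 (45.2%) had their highest signal on wild-type replicate 2, where 14.6% of all tested probe sets had theirs. The lowest signal fell on frb1-1 replicate 1 for 10 genes (32.3%, against 12.6% of all tested probe sets) and on wild-type replicate 1 for 11 (35.5%, against 15.3%). PRX72 followed the same order, with its highest signal on wild-type replicate 2 and its lowest on frb1-1 replicate 1. PRX71 shared part of it, being lowest on wild-type replicate 1 and, among the wild-type arrays, highest on replicate 2. The 3 highest signals of PRX71 and of PRX62 were those of the frb1-1 arrays. What sets wild-type replicate 2 apart was not tested.

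**Figure D4:**
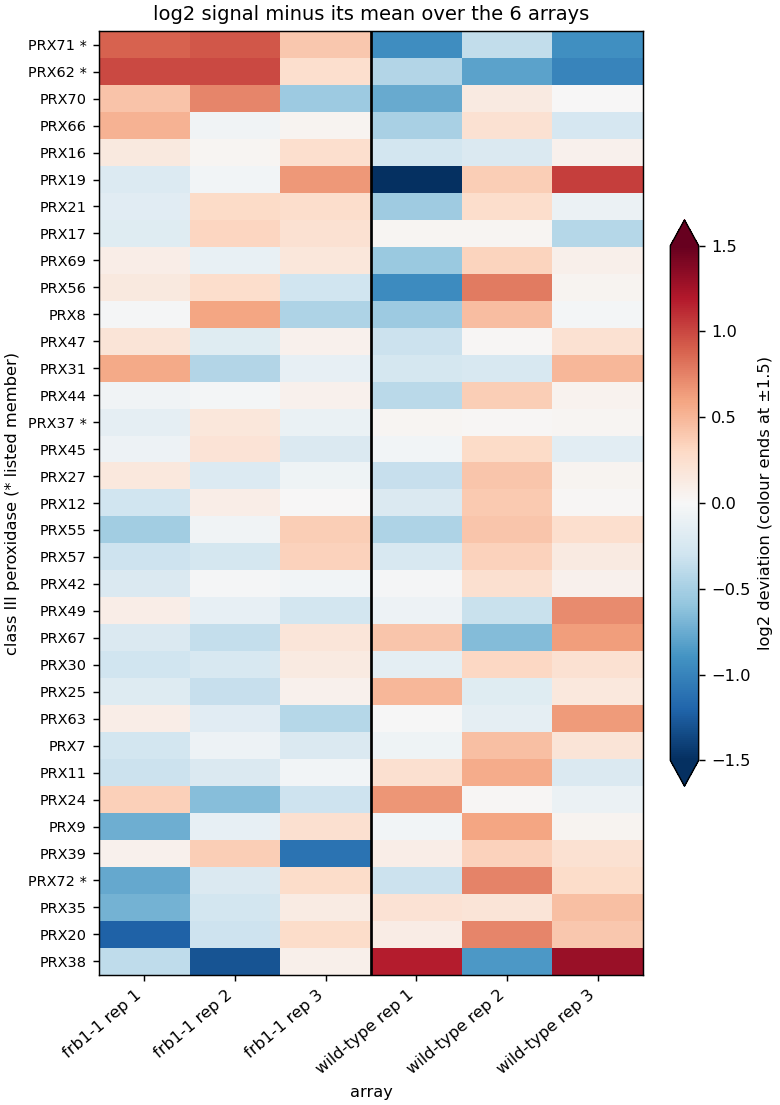
Log2 signal minus its mean over the 6 arrays (colour, red above and blue below the mean, ends at ±1.5) for the 35 class III peroxidases (rows, ordered by the difference frb1-1 minus wild type, * for the listed genes) on 3 frb1-1 arrays (left of the line) and 3 wild-type arrays (right). PRX71 and PRX62 are red on the 3 frb1-1 arrays and blue on the 3 wild-type arrays, and 14 of the 31 rows of other genes have their highest value on wild-type replicate 2.

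Of the 4 probe sets that belong to more than 1 gene, 1 was higher on every frb1-1 array than on every wild-type array, as were 6.26% of all tested probe sets. It is shared by PRX29 (AT3G17070) and AT3G42570, so that the signal cannot be given to either. It read 589, 510 and 787 on frb1-1 replicates 1 to 3, and 269, 314 and 251 on wild-type replicates 1 to 3. The log2 difference was 1.16 (standard error 0.24), which did not pass the threshold (adjusted p = 0.0795 from limma) and did so under 1 alternative, the replicate block (adjusted p = 0.0318, highest over the alternatives 0.369). The study's list of up-regulated genes holds this probe set too. The probe set of PRX50 and PRX51 had a log2 difference of 0.61 (standard error 0.26, adjusted p = 0.796), with wild-type replicate 2 inside the frb1-1 range. Those of PRX22 and PRX23 and of PRX14 and PRX15 had -0.30 (standard error 0.21) and -0.52 (standard error 0.45).

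Peroxidases need hydrogen peroxide, which NADPH oxidases (RBOH) and copper amine oxidases can form. The genes were listed by this function, and not all of the enzymes act in the wall. Of 14 such genes listed, 6 have a probe set of their own, and of their 7 probe sets 6 were tested. None passed the test (limma, 0 at an unadjusted p under 0.05, against 5.96% of all tested probe sets), with a median log2 difference of -0.18. Few would be called in so short a list, since 0.276% of all tested probe sets were called higher and 0.0920% lower. The highest was that of CuAO1, a copper amine oxidase (0.34, standard error 0.24), and the lowest that of 1 of the CuAO2 probe sets (-0.33, standard error 0.20). RBOHD and RBOHF, the main NADPH oxidases of leaves, are not named by the annotation and were not analysed here. Among 10 ascorbate peroxidases and catalases, which remove hydrogen peroxide inside the cell, 2 were tested, the plastid enzymes SAPX (-0.20, standard error 0.20) and TAPX (-0.13, standard error 0.20), and neither passed the test (0 at an unadjusted p under 0.05).

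Seed markers moved with the genotype as PRX71 and PRX62 did. Both named markers of the seed list, PAP85, a vicilin-like storage protein gene, and M17, a late embryogenesis gene, passed the test with higher signals in frb1-1 (limma). Their summed signal mainly follows M17 (mean 2052 in frb1-1, against 328 for PAP85). It was 2573, 2294 and 2273 on frb1-1 replicates 1 to 3, and 392, 464 and 554 on wild-type replicates 1 to 3. Many storage protein genes were already reported as up-regulated from these arrays by the study, so that this is not independent evidence. The root markers EXPA7 and EXPA18, expansin genes of root hairs, overlapped, with a summed signal of 956 to 1191 on the frb1-1 arrays and 954 to 1167 on the wild-type arrays. No marker was at 0 on any array. The part of seed transcripts in the PRX71 and PRX62 differences was not tested.

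The genes whose pattern over the 6 arrays was most like that of PRX71 were sought among 8249 tested probe sets of 1 gene. By Pearson's correlation of the log2 signals these were FDH, which encodes formate dehydrogenase of the mitochondrion (r = 0.997, Spearman's rho = 1.0), AT5G50180 (r = 0.990, rho = 0.886), AT5G63190 (r = 0.989, rho = 1.0), AT3G15720, of the polygalacturonase family (r = 0.989, rho = 0.943), and XTH19, which encodes a xyloglucan-modifying enzyme (r = 0.988, rho = 0.886). Any gene that separates the genotypes scores high here, and 6 arrays against so many candidates leave the order loose. FDH read 2172, 2271 and 1761 on frb1-1 replicates 1 to 3, and 847, 1251 and 883 on wild-type replicates 1 to 3, so that its arrays stood in the same order as those of PRX71. Its log2 difference was 1.07 (standard error 0.22, adjusted p = 0.0860 from limma). Of the genes most like PRX71 only XTH19 passed the test (log2 difference 1.86, standard error 0.25, adjusted p = 0.0087 from limma). The study had already named XTH19 as up-regulated from these arrays, so that its rise is not independent evidence.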

How the data were processed

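The deposited values are linear signal intensities of 22810 probe sets, which the authors made with MAS 5.0 scaled to a target of 500. Detection calls were not used here. Controls (64) were left out. Probe sets averaging at least 6 on the log2 scale were compared (3 frb1-1 arrays against 3 wild-type arrays) with limma 3.58.1 in R 4.3.3 (eBayes with a mean-variance trend), with Benjamini-Hochberg adjustment over all probe sets tested, and no pseudocount. Arrays correlated from 0.918 to 0.972 within and from 0.920 to 0.962 between genotypes. The number of arrays limits the precision.

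Probe sets were named through the platform annotation, which gives 1 gene to 13513 probe sets, several to 503 and none to 8794. Gene order came from the RefSeq table of TAIR10.1. The members and lists were chosen with earlier results of these data known. Named genes are the members, the 5 highest and 5 lowest of the other peroxidases, their called genes (none), a list of close relatives, called genes and the extremes of the hydrogen peroxide lists, and the 5 genes most like PRX71. With their values in view, PRX7, the shared probe sets and the neighbouring loci were named beside these. The test was checked on simulated data.

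Alternatives were median scaling, quantile normalization, a mean of at least 7, no filter, a pseudocount of 32, no trend, array weights, a replicate block and each array left out. Leaving out both replicate 3 arrays was added after seeing the data.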

Additional observations from a re-analysis of the deposited data

How the results depend on the processing

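The replicate numbers were not taken to pair the arrays. The deviations of same-numbered arrays correlated at 0.04, 0.28 and 0.32 for replicates 1, 2 and 3. Those of differently numbered arrays correlated from -0.31 to 0.12. The same-numbered value was thus the highest for replicates 2 and 3 but not for replicate 1. Whether the numbers pair the arrays was not tested. With the replicate block, 107 probe sets were called higher and 31 lower in frb1-1, against 42 and 14 without it, and PRX62 joined PRX71. Array weights gave 98 higher and 24 lower, no mean-variance trend 19 and 9, and a mean log2 signal of at least 7 gave 9 lower. Without both replicate 3 arrays (chosen after seeing the data) 109 were higher and 28 lower. Leaving out 1 array gave 11 to 66 higher and 5 to 16 lower. In no alternative was any of the other class III peroxidases with a probe set of its own called (the probe set that PRX29 shares passed with the replicate block), and the hydrogen peroxide lists, run without the filter as well, gave 0. Under the 13 alternatives run, the log2 differences ran from 1.39 to 1.67 for PRX71 and from 1.33 to 1.73 for PRX62. They ran from -0.14 to 0.01 for PRX37 and from -0.75 to -0.20 for PRX72. Leaving out 1 of 3 arrays cannot move a difference by more than the spread between replicates, and the filters leave it unchanged. These settings are thus no test of the differences. The median of the other peroxidases ran from -0.26 to -0.02. Signals near the minimum, such as those of PRX38 in frb1-1, limit the precision of the fold, and 19 peroxidases under it were not tested.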
